A study of Mus musculus with 4 samples.

Results

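The Cdkn2a and Cdkn2b locus was covered by 24 of the 174638 genomic probes on the array. They were taken by position alone, as every probe in a 55 kb window of mouse chromosome 4 (mm9 build) that holds the 2 genes. The 24 probes fell into 3 tight groups, each under 2 kb wide, with no probe between them. The cells were 3T3-L1, a line of mouse embryo fibroblasts that can be induced to become adipocytes. Wild-type cells served as the control, and the other line was stably transfected with shRNA8 against slincRAD, a long noncoding RNA. Each line was harvested on day -2, before induction, and on day +2, counted from confluence, under 0.5 mM isobutylmethylxanthine, 1 µM dexamethasone and 167 nM insulin. DNA precipitated with an antibody against 5-methylcytosine (the IP, Cy5 dye) and total input DNA (Cy3 dye) were hybridised together, so that a higher ratio of IP to input marks a region richer in methylated cytosine. Each combination of line and day was 1 array, from 1 stable line and 1 shRNA, and all 4 arrays were positions of 1 slide. The input channel of the shRNA8 array of day +2 carries a label that mixes both stages (before adipogenesis, day +2) and was taken as day +2.

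Cdkn2a is one gene with 2 start sites and 2 unrelated proteins. The transcript that starts at exon 1α gives p16Ink4a, which blocks the cyclin D kinases Cdk4 and Cdk6 and so keeps the retinoblastoma protein active. The upstream start at exon 1β gives p19Arf, which holds back Mdm2 and so stabilises p53. Cdkn2b, the neighbour on the same strand, gives p15Ink4b, another inhibitor of the cyclin D kinases. Loss of the locus, or its silencing by Polycomb or by promoter methylation, is a common way for cultured fibroblasts and tumour cells to escape senescence. Copies of it are often missing in 3T3 lines. The measurements therefore bore on whether the locus was present in these cells, how its 3 start regions stood in methylated DNA, and whether either differed by line or day.

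The 3 start regions differ in sequence, and the density of CG, the dinucleotide that carries 5-methylcytosine, sets what the antibody can bind. The 250 bases upstream of each annotated start are shown to make this contrast visible, from RefSeq on GRCm38.p6, minus strand, 5′ to 3′, with every CG in capitals.
Ink4a, chr4:89282193-89282442: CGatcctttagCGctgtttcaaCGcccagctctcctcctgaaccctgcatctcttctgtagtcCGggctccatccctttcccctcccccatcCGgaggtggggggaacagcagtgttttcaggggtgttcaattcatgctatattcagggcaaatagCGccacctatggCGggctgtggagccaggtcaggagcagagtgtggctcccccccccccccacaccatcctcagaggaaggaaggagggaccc
Arf, chr4:89294620-89294869: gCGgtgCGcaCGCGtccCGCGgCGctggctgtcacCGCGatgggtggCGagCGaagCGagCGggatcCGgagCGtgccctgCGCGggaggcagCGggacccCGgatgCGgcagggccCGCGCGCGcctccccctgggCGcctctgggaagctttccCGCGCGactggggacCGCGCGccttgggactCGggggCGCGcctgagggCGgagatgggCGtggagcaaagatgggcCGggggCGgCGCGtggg
Cdkn2b, chr4:89311033-89311282: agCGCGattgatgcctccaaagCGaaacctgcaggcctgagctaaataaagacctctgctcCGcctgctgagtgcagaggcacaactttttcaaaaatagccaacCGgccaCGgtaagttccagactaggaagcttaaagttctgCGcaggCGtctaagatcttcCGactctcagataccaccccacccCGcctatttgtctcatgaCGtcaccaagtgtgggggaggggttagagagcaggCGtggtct
The Arf sequence held 40 CG and was 78.4% G or C, and its CG count stood at 1.08 times what its base composition alone would give. At least 40 CG were found in 1.31% of the 32851 promoters of the table, whose median was 6 CG. The Ink4a sequence held 7 CG, was 60% G or C and reached 0.316 of the composition value, and 46.3% of promoters held at least as many CG. The Cdkn2b sequence held 12 CG, was 53.6% G or C and reached 0.670, and 33.5% held at least as many. The letters GGGCGG, searched on both strands, occurred 2 times in the Arf sequence and in neither of the others. They were found in 32.7% of all promoters in the table.

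The probe groups were assigned to these starts by order and spacing, because the array files give mm9 positions without gene names and the sequence table is on another build. The first group held 7 probes at chr4:88927598-88928961 (mm9) and was called the Ink4a group. The second held 9 probes at chr4:88940039-88941809, the Arf group. The third held 8 probes at chr4:88956453-88957958, the Cdkn2b group. The centres of the groups were 12644.5 and 16281.5 bp apart, and the annotated starts are 12427 and 16413 bases apart in the RefSeq table. Both genes run toward lower coordinates, so the low-coordinate end of each group faces the gene body. Probe lengths, which bear on brightness on this array, differed between groups, with a mean of 52.7 bases in the Ink4a group, 45.2 in the Arf group and 48.1 in the Cdkn2b group.

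The locus was not at background in either channel. Net signal is the brightness of a spot after the deposited background subtraction, in arbitrary intensity units. The median IP net signal over the 24 probes was 118.9 in control cells on day -2, 117.8 in control cells on day +2, 128.8 in shRNA8 cells on day -2 and 139.8 in shRNA8 cells on day +2. The median input net signal was 7.36, 6.60, 12.9 and 12.6 in the same order. Both shRNA8 arrays were brighter than both control arrays in both channels, and the same held over all 174301 unflagged genomic probes, whose IP medians were 49.0 and 48.9 in control cells and 56.0 and 56.4 in shRNA8 cells. The 810 negative control spots of each array had their 95th percentile between 10.5 and 12.3 in IP and between 4.57 and 5.60 in input. In IP, 18 or 19 of the 24 probes exceeded it, 75% to 79.2%, and over all probes the share was 75% to 75.9%. In input, 13 to 16 of the 24 exceeded it, 54.2% to 66.7%, against 53.2% to 65.0% of all probes. By this measure the share of bright probes in the locus lay within a few points of the array as a whole in all 4 arrays.

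Against the flanking 1 Mb on each side, the median of all 24 probes stood higher in IP and near level in input, though the 3 groups ranged widely around it. The flanks held 269 probes. Their IP median was 53.2 and 56.2 in control cells (day -2, then day +2) and 64.9 and 62.8 in shRNA8 cells. The locus median was 213.5% ± 11.8 of it (SD, n = 4 arrays). The arrays are 1 per line and day, so this SD is not a replicate error. The input flank medians were 7.39, 8.13, 12.7 and 15.0 in the same order. The locus median was 91.5% ± 10.4 of them (SD over the same 4 arrays). The lowest of the 4 input values was 81.1%, in control cells on day +2, and the highest was 101.3%, in shRNA8 cells on day -2. The 2 sides were far from equal, with 262 probes in 31 groups on the left and 7 probes in 2 groups on the right. The nearest probe group lay 144 kb to the left and 397 kb to the right, and the array held no probes in those gaps. In the left flank 98 probes belonged to a bright, densely tiled stretch of 7 groups at chr4:88418685-88452491, with group medians of 236 to 428 in IP. Without that stretch, the locus reached 350.7% of the flanks in IP and 149.1% in input, and with means in place of medians 65.8% and 49.7%. The percentages thus depended on how the flanks were summarised. The counts of probes above the negative controls did not use the flanks.

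Comparison at equal probe length gave a narrower picture. Each probe was placed among all probes of its own length in the same array, where 50 is the middle. The locus median in IP was 54.2 and 54.3 in control cells and 55.2 and 55.9 in shRNA8 cells (day -2, then day +2). In input it was 52.6 and 54.3 in control cells and 48.5 and 44.9 in shRNA8 cells. The flanks were at 49.1 to 50.4 in IP and, in input, at 58.4 to 60.5. Among the 1006 windows of 55 kb with at least as many probes, 65.8% had a lower median than the locus in IP, and 65.8% in input as well. Chromosome X, read the same way, lay between 48.2 and 48.4 in IP and between 49.7 and 50.8 in input. Chromosome Y lay between 42.8 and 46.1 in IP and, in input, between 38.7 and 46.2. No region of known copy number was used as a scale, so the number of copies of the locus was not tested.

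**Figure D1:**
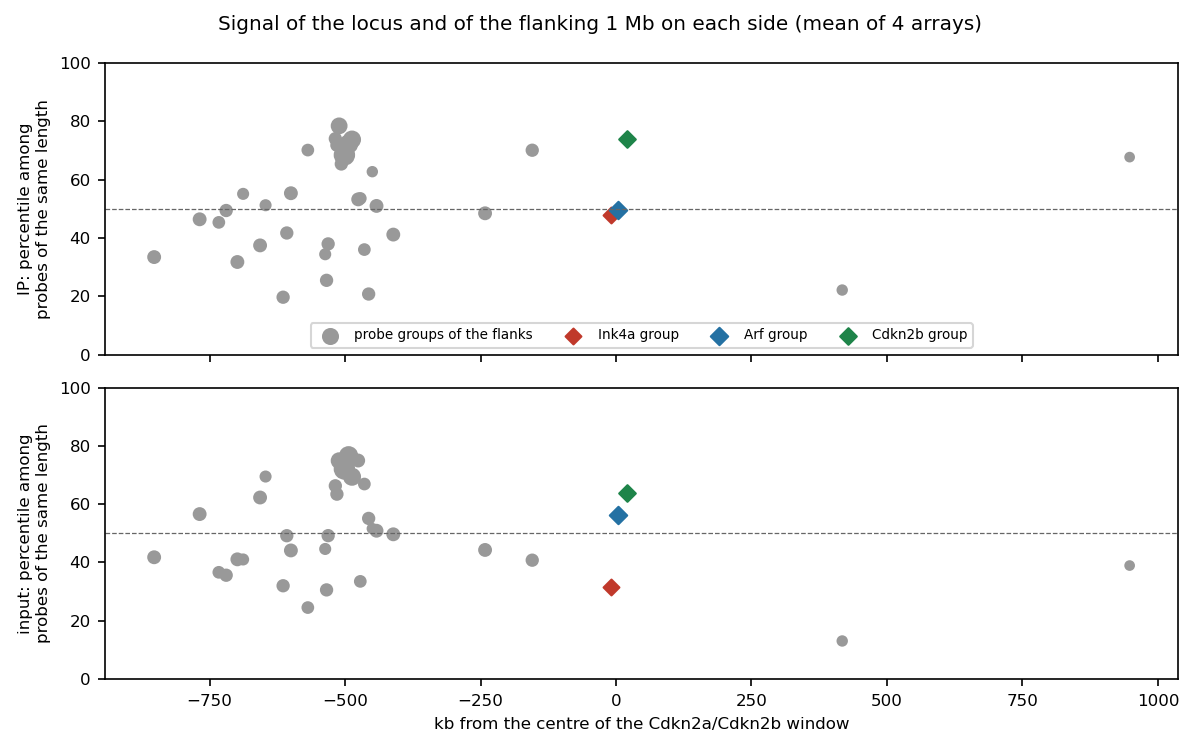
Median place of each probe group among probes of the same length (vertical axis, percentile, mean of the 4 arrays; IP above, input below) against its distance in kb from the middle of the Cdkn2a and Cdkn2b window. Grey circles are flank groups, sized by their number of probes, and the dashed line is 50; the Cdkn2b group stands at 73.9 in IP and 63.8 in input, the Arf group at 49.7 and 56.1, and the Ink4a group at 47.8 and 31.7, all inside the range of the flank groups.

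The 3 groups differed in brightness. The Ink4a group had IP medians of 11.3 and 10.2 in control cells and 14.2 and 14.9 in shRNA8 cells (day -2, then day +2), between 18.1% and 23.7% of the flank median. Its 4 dim probes were 56 to 60 bases long and its 3 bright ones were 45 bases long. Over the whole array 49.8% of the spots of probes of 59 or 60 bases were not above background in IP, against 1.70% of the spots of 45-base probes. The Arf group had IP medians of 128.4, 119.6, 131.7 and 145.6 in the order above, 203.0% to 241.2% of the flanks. Its input medians were 21.1, 23.0, 21.0 and 19.4, which was 286.0% and 282.9% of the flanks in control and 165.1% and 129.6% in shRNA8 cells, whose flanks were brighter in input. The Ink4a group had 35.5% and 38.6% of the flanks in input in control and 18.1% and 16.4% in shRNA8 cells, on medians of 2.30 to 3.14 that were under the negative-control limit. The Cdkn2b group had 139.5, 134.4, 153.8 and 151.5, which was 237.1% to 262.1% of the flanks, and in input 97.1% to 131.6%. At equal probe length the order of the groups was less wide, with the Cdkn2b group at 73.9, above 93.3% of the 21971 probe groups of the array, and the Arf and Ink4a groups at 49.7 and 47.8. In input at equal length the Ink4a group was the lowest at 31.7, and 11.9% of probe groups lay below it.

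For scale, the nearest group to the left, chr4:88782173-88783560 with 7 probes, had a mean of its 4 median IP signals of 75.1 and 4.74 in input. The nearest group to the right, chr4:89354600-89355271 with 4 probes, had 24.2 and 1.67. The brightest flank group, chr4:88424526-88428470 with 14 probes, had 427.8 in IP and the dimmest, chr4:88695036-88696634 with 8 probes, had 4.28. All 3 groups of the locus lay between those extremes.

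The brightest probe of the locus was chr4:88940039-88940083, at the gene-body end of the Arf group. Its IP net signal was 997 and 970 in control cells and 1204 and 1172 in shRNA8 cells (day -2, then day +2), and its input was 98.9, 103, 143 and 144. Next was chr4:88928286-88928330 in the Ink4a group, with IP of 581, 574, 609 and 675 and input of 42.1, 40.7, 55.9 and 73.7 in the same order. The third was chr4:88956453-88956497 in the Cdkn2b group, with IP of 372, 376, 429 and 404 and input of 108, 108, 159 and 94.5. Each of the 3 groups therefore held a probe far above the negative controls in both channels of all 4 arrays. In all 3 the shRNA8 arrays were the brighter pair in IP, as they were over the whole array.

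The dimmest probe was chr4:88940844-88940888 in the Arf group, whose IP net signal was -0.277, -0.142, -1.12 and -0.887 in the same order. Its input was 1.72, -3.26, -4.11 and -4.68, so that it was not above background in either channel of any array. It is 45 bases long, and 0.670% of the 45-base probes of the array were likewise at background in both channels of all 4 arrays. The 2 next dimmest were the first probes of the Ink4a group. The probe chr4:88927806-88927865, of 60 bases, had IP of -0.639, 0.224, -0.156 and -0.535, and chr4:88927598-88927656, of 59 bases, had -0.00769, 0.341, -0.0802 and 0.0725. The latter was also at background in input in all 4 arrays, which held for 11.6% of the probes of 59 or 60 bases. The next probe on each side of the dim Arf probe had IP signals above 100 in all 4 arrays.

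**Figure D2:**
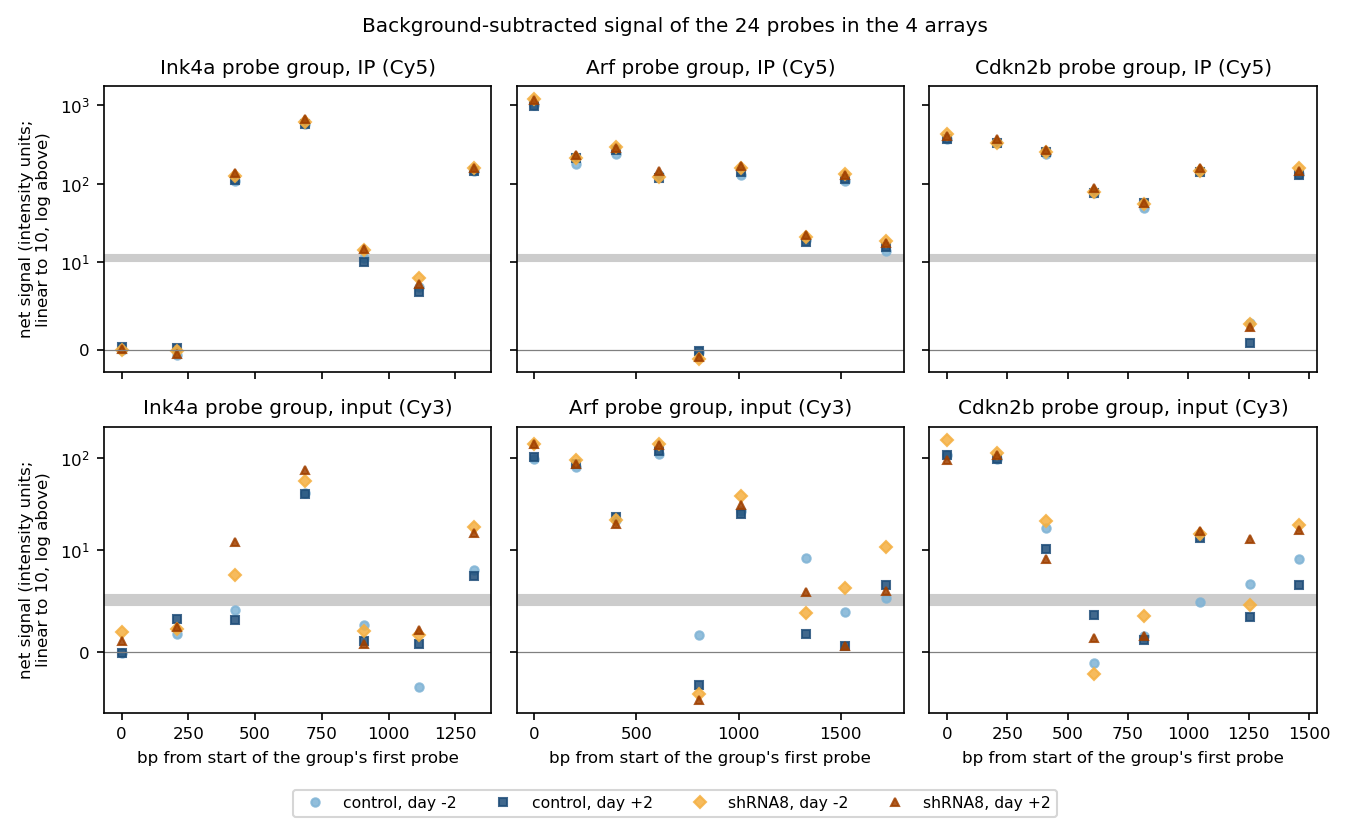
Net signal (vertical axis, intensity units, linear below 10 and logarithmic above) of each probe in each array, IP in the upper row and input in the lower, against its distance in bp from the first probe of its group. The grey band is the range over arrays of the 95th percentile of 810 negative control spots; the 4 arrays fall close together at most probes in IP and spread at dim probes in input, and 1 Arf probe sits at 0 in IP between bright neighbours.

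The pattern along the locus was nearly the same in the 4 arrays. Over the 24 probes, Pearson's r between pairs of arrays was 0.996 to 0.999 for IP net signal, 0.965 to 0.995 for input and 0.938 to 0.969 for the ratio. Those values are across probes that share their sequence and length between arrays, and they describe the probes rather than the cells. The ratios below are log2 of processed IP over processed input signal, centred so that the median of the array is 0 and quantile normalized over the 4 arrays. The deposited processed signals hold a small positive substitute where a spot did not exceed background, so a ratio at such a spot is not a measurement. Of the 24 probes, 14 were above background in both channels of all 4 arrays and are called usable here: 3 in the Ink4a group, 6 in the Arf group and 5 in the Cdkn2b group. Usable probes were picked for passing background, so their levels are a description of these probes and not of the whole start region. At some of them, input was still under the negative-control limit in 1 or more arrays.

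Among usable probes the Ink4a group had the highest ratio of IP to input and the Arf group the lowest. The Ink4a mean was 1.85 and 1.90 in control cells and 1.39 and 1.14 in shRNA8 cells (day -2, then day +2). The Cdkn2b mean was 0.87, 0.68, 0.43 and 0.81 in the same order, and the Arf mean was -0.30, -0.41, -0.42 and -0.17. The order Ink4a, Cdkn2b, Arf held in 4 of 4 arrays, but the spread over probes was wide. In control cells on day -2 the SD over probes was 0.42 in the Ink4a group, 1.32 in the Cdkn2b group and 1.26 in the Arf group. Both neighbours in the order, Ink4a with Cdkn2b and Cdkn2b with Arf, overlapped in their ranges in every array. The outer pair did not overlap in control cells, where the lowest Ink4a probe had 1.42 and 1.34 and the highest Arf probe 1.22 and 1.13 (day -2, then day +2), but did in shRNA8 cells. The order changed with the probes kept. With only probes flagged well above background in both channels of all 4 arrays, Ink4a had 1.30 on 1 probe. Arf then had -0.14 on 5 probes and Cdkn2b -0.48 on 2. With the processed IP signal alone and all probes kept, Ink4a was the lowest at -1.06, with Arf at 0.61 and Cdkn2b at 0.89.

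Placed among the 17580 probe groups of the array with at least 3 usable probes, the Ink4a mean over the 4 arrays, 1.57, was above 99.1% of them. The Cdkn2b mean, 0.70, was above 82.3%, and the Arf mean, -0.32, above 30.2%. The median of those groups was 0.06. Taking off the median ratio of each probe length left the places at 99.1%, 81.0% and 28.8%. At equal probe length (mean of the 4 arrays), the Ink4a probe chr4:88928023-88928067 stood at 47.8 in IP and 27.3 in input. Its input net signal in control cells, 4.14 and 3.14, was under the negative-control limit. The probe chr4:88928917-88928961 stood at 54.4 and 39.5. The other, chr4:88928286-88928330, stood at 85.4 and 70.7, with a mean ratio of 1.26. How far low input raised the Ink4a place was not tested. With all probes kept and the group median in place of the mean, the Ink4a group was above 45.9% of 21971 groups, the Cdkn2b group above 98.0% and the Arf group above 40.2%. The same medians after taking off the median ratio of each probe length were above 92.1%, 97.3% and 16.7%. The place of the Ink4a group, with its long dim probes kept, thus moved with the length correction. The Cdkn2b medians here included probes that were not usable, with mean ratios of 2.36, 1.97 and -3.40. At the first 2 of these, input passed background in 1 array. Beside the sequences printed above, the start with the most CG, Arf, was the one whose usable probes had the lowest mean ratio. Among probes well above background in both channels it was the Cdkn2b group instead, at -0.48. With 3 regions these are descriptions, and the printed bases were not matched to single probes.

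**Figure D3:**
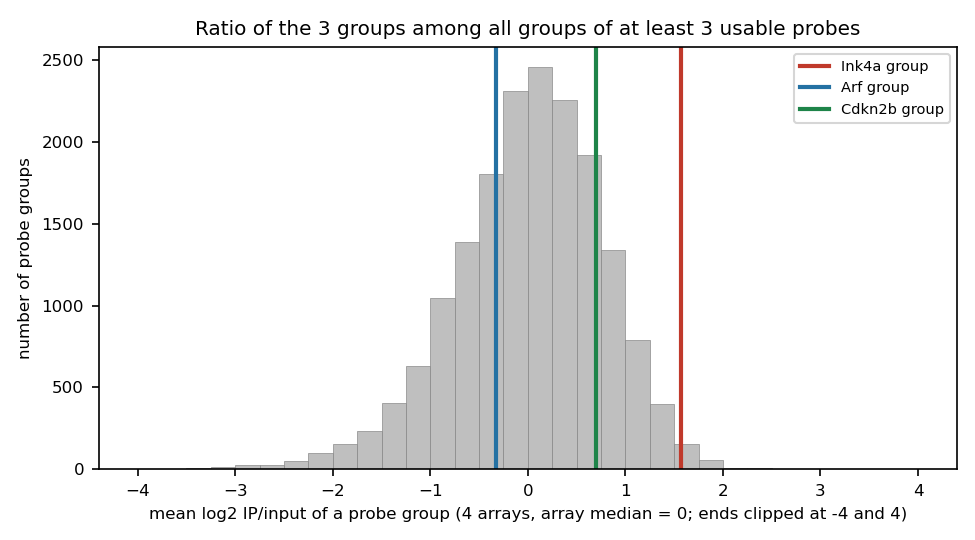
Number of probe groups (vertical axis) by their mean log2 ratio of IP to input over usable probes and 4 arrays (horizontal axis, array median 0), for the 17580 groups with at least 3 usable probes. Vertical lines mark the Arf group at -0.32, the Cdkn2b group at 0.70 and the Ink4a group at 1.57, near the right end.

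The 3 usable probes of the Ink4a group all had positive ratios in every array. The probe chr4:88928023-88928067 had 2.26 and 2.57 in control cells and 1.90 and 1.21 in shRNA8 cells (day -2, then day +2). The probe chr4:88928286-88928330 had 1.42, 1.34, 1.28 and 1.01 in the same order, and chr4:88928917-88928961 had 1.85, 1.78, 0.99 and 1.21. At each of the 3 the control arrays were the higher pair, with no overlap between lines. The same held at 22.2% of the usable probes of the array. Log2 IP at the 3, centred on the array median, differed between lines by a mean of -0.05 on day -2 and 0.01 on day +2. The 4 other probes of the group were at background in input in at least 3 of the 4 arrays, and their ratios were between -2.89 and 0.25. The lowest mean of these, -2.48, was that of chr4:88927806-88927865, which rests on substitute values.

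In the Arf group the ratio changed from one probe to the next. The gene-body end, chr4:88940039-88940083, had 0.94 and 0.77 in control cells and 0.90 and 0.81 in shRNA8 cells. The next, chr4:88940244-88940288, had -1.12, -1.12, -1.02 and -0.83, and the one after, chr4:88940440-88940484, had 1.22, 1.13, 1.65 and 1.80. The probe chr4:88940651-88940695 was the lowest usable probe of the locus, with -2.06, -2.31, -2.48 and -2.33. It was not dim: its input net signal was 112 to 142, and its IP was 120 to 146. The probe chr4:88941049-88941093 was near the array median, with 0.04, 0.12, -0.13 and 0.24, and chr4:88941763-88941809, the last, had -0.79, -1.06, -1.42 and -0.70. The alternation of high and low ratios was the same in the 4 arrays.

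The highest mean ratio of the locus, 2.82, was at chr4:88941559-88941603 in the Arf group, with 2.48, 3.07, 2.23 and 3.48 in the order above. Its IP net signal was 109, 116, 132 and 129, but its input was 3.90, 0.604, 6.23 and 0.610 and passed background in 2 of the 4 arrays. The high ratio there came with an input near 0. So did the next highest, 2.36, at chr4:88957064-88957111 in the Cdkn2b group, with ratios of 2.26, 1.80, 2.58 and 2.78. Its IP was 75.6, 77.3, 78.9 and 87.2, and its input of -1.07, 3.62, -2.19 and 1.37 passed background in 1 array.

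In the Cdkn2b group the gene-body end was low and the upstream side high. The 2 probes at that end, chr4:88956453-88956497 and chr4:88956662-88956706, had mean ratios of -0.46 and -0.59 over the 4 arrays. The first had -0.44, -0.55, -0.75 and -0.10, and the second had -0.55, -0.70, -0.62 and -0.50, in the order above. Farther upstream, chr4:88956863-88956907 had 1.30, 2.01, 1.45 and 2.62, and the last probe, chr4:88957912-88957958, had 1.61, 1.85, 0.95 and 0.98. Between them chr4:88957503-88957554 had 2.44, 0.80, 1.13 and 1.07, the control array of day -2 standing apart. The exception was chr4:88957710-88957759, with the lowest mean ratio of the locus, -3.40. Its values were -3.45, -2.86, -2.87 and -4.41, on an IP net signal of 2.99, 0.792, 2.88 and 2.58, which passed background in 2 arrays. The step from the second probe to the third, from below 0 to above 1, was present in 4 of 4 arrays, with mean IP net signals of 342 and 253 at these 2 probes and mean inputs of 104 and 14.3. At equal probe length they stood at 74.4 and 67.1 in IP, and at 81.7 and 43.1 in input. Input was flagged well above background in all 4 arrays at the 2 gene-body probes, and in 3 or fewer at each probe upstream. The probe chr4:88957269-88957321 had a mean ratio of 1.97, on an input that passed background in 1 array.

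**Figure D4:**
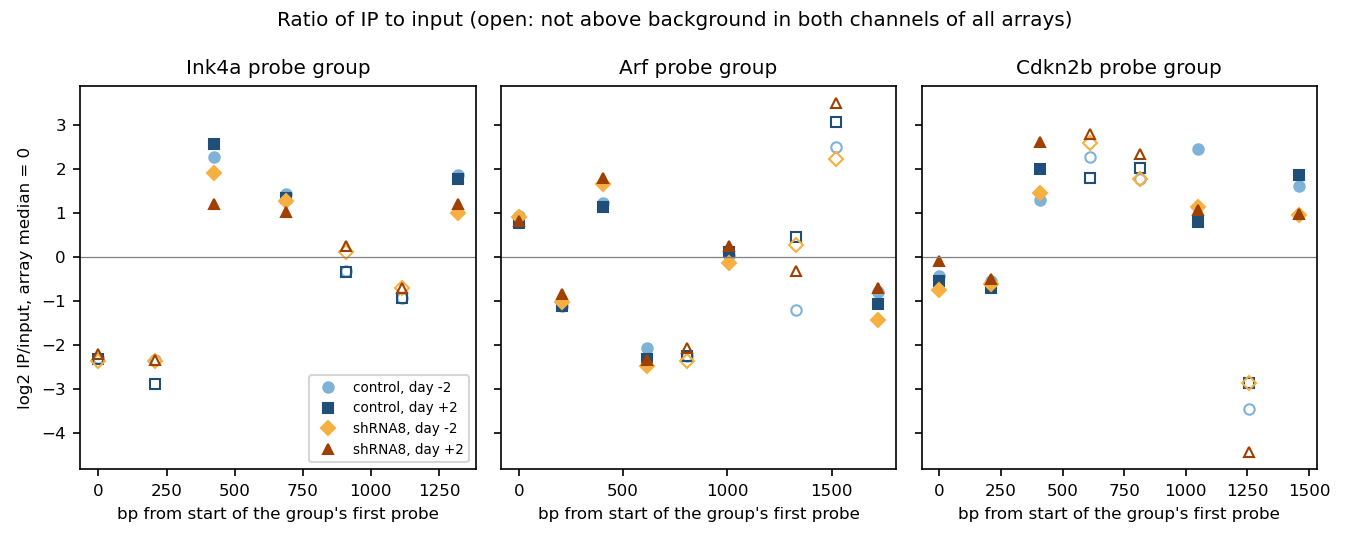
log2 ratio of IP to input (vertical axis, array median 0) of each probe in each array against its distance in bp from the first probe of its group. Filled symbols are the 14 usable probes and open symbols the 10 others; the alternation in the Arf group and the step in the Cdkn2b group, from about -0.5 to above 1, repeat in the 4 arrays.

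Averaged over all 24 probes the ratio differed between lines or days by at most 0.13, and over the 14 usable probes by at most 0.31 in size. With 1 array per group there is no replicate, no test and no p-value, so a probe was counted as higher or lower where it differed by at least 0.6 on the log2 scale, 1.52-fold. The mean difference over the 24 probes, shRNA8 minus control, was -0.07 ± 0.54 on day -2 (SD over probes). Of the 24, 1 was higher and 4 were lower, against a background of 11.9% of all probes higher and 13.8% lower. On day +2 it was 0.04 ± 0.64, with 4 higher and 4 lower, against 12.3% and 15.6%. From day -2 to day +2 the mean differed by 0.02 ± 0.58 in control cells, with 2 higher and 1 lower, against 11.4% and 11.6%. In shRNA8 cells it differed by 0.13 ± 0.57, with 4 higher and 2 lower, against 11.9% and 13.8%. Over the 14 usable probes, chosen after the data were seen, shRNA8 minus control was -0.31 ± 0.45 on day -2, with 11 of 14 lower. Over all 92804 usable probes of the array that mean was -0.06, with 50820 of them lower. On day +2 the mean over the 14 was -0.01 ± 0.58, with 5 of 14 lower, against 46739 of the 92804. Between days it was -0.11 ± 0.51 in control cells, where the mean over 24 probes had the other sign, and 0.19 ± 0.45 in shRNA8 cells. The SD is that of single probes within 1 pair of arrays, so it gives no error for how the cells would differ again. The 4 comparisons share arrays in pairs and are not independent of each other. Each count of the 24 differed from its background share of 24 probes by 2 probes or fewer.

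The probes were also counted by whether the arrays of one line lay wholly above those of the other. Both shRNA8 arrays lay above both control arrays at 5 of the 24, against 24.3% of all probes, and both control arrays above both shRNA8 arrays at 5, against 17.7%. Both arrays of day +2 lay above both of day -2 at 5, against 15.5%, and the reverse held at 2, against 14% of all probes. The first of these counts had 2 in the Ink4a group, 2 in the Arf group and 1 in the Cdkn2b group. The second had 3, 1 and 1.

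**Figure D5:**
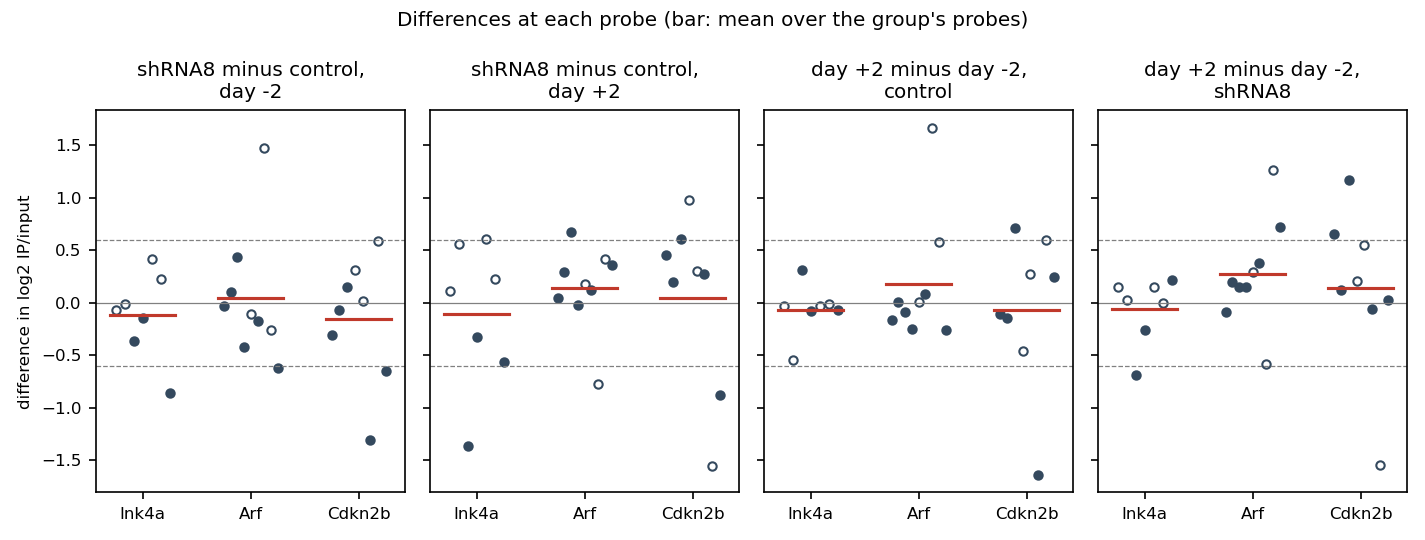
Difference in log2 ratio of IP to input (vertical axis) at each of the 24 probes in the 4 comparisons, by probe group, with a bar at the mean over the probes of the group. Filled circles are usable probes, open circles the others, and dashed lines mark 0.6 in each direction; the bars lie near 0, and the 3 filled Ink4a circles lie below 0 in both comparisons between lines.

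The largest single differences sat at probes whose input was under the negative-control limit in at least 1 of the arrays compared. Input still passed background in all 4 arrays at 88957503-88957554 and 88957710-88957759, described below. The latter passed in IP in only 2 arrays. On day -2 the largest positive difference, shRNA8 minus control, was 1.47, at chr4:88941367-88941411 in the Arf group, where the input net signal was 9.17 in control and 3.86 in shRNA8 cells while IP was 19.5 and 20.8. The largest negative difference, -1.31, was at chr4:88957503-88957554 in the Cdkn2b group, with input of 4.94 and 14.9 and IP of 144 and 147. The same 2 probes had the largest differences between days in control cells, 1.67 and -1.64, since both comparisons use the control array of day -2. On day +2 the largest positive difference was 0.98 at chr4:88957064-88957111 and the largest negative one was -1.56 at chr4:88957710-88957759, both in the Cdkn2b group and neither usable. The latter also had the largest negative difference between days in shRNA8 cells, -1.55, with input of 4.59 on day -2 and 13.1 on day +2. The largest positive difference between days in shRNA8 cells was 1.26, at chr4:88941559-88941603. In log2 IP net signal the differences at these probes, in the comparisons named, were between -0.16 and -0.03, leaving out chr4:88957710-88957759, where IP was not above background in all arrays.

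The IP channel by itself hardly moved at the usable probes. After centring each array on its median, log2 IP over the 14 differed between lines by a mean of -0.01 ± 0.13 on day -2 and -0.02 ± 0.07 on day +2 (SD over probes). The same difference in input was 0.29 ± 0.45 on day -2 and 0.02 ± 0.66 on day +2. Between days IP differed by 0.05 ± 0.10 in control and 0.04 ± 0.11 in shRNA8 cells, and input by 0.15 ± 0.50 and -0.12 ± 0.48. The spread of input differences over probes was thus several times that of IP in each of the 4 comparisons. The same was seen over all 92804 usable probes of the array, where the SD was 0.12 to 0.14 for IP and 0.50 to 0.57 for input.

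One of the 3 groups passed the size rule for a region in 1 of the 4 comparisons. That rule took probes with input above background in all 4 arrays, normalized again over those probes, and asked for at least 3 of them, a mean of at least 0.6 and 75% in one direction. On day +2 the Ink4a group was lower in shRNA8 than in control cells, by 0.68 ± 0.53 over 3 probes (SD over probes), 3 of 3 lower. Of the 17452 regions of the array, 1.94% were called lower in that comparison and 1.4% higher. On day -2 the same group differed by -0.39 ± 0.37, short of the size rule, with 3 of 3 lower, and 1.25% of regions were called lower and 1.18% higher. The Arf group on day +2 had a mean of 0.32 ± 0.24 over 6 probes, 6 of 6 higher, which did not pass the size rule. Under the normalization over all unflagged probes, 5 of these 6 were higher, with a mean of 0.24 ± 0.26. Their log2 IP differed by -0.003 ± 0.07 and their log2 input by -0.29 ± 0.28. How often all probes of such a group lie on one side was not counted over the array. Under the region rule, the other values for the Arf and Cdkn2b groups were between -0.21 and 0.26. Between days the Ink4a group differed by 0.07 in control and -0.23 in shRNA8 cells. No group of the locus was called between days, where 0.986% of regions were called higher and 1.11% lower in control cells, and 0.98% and 2.21% in shRNA8 cells.

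The Ink4a difference lay in the input channel. At its 3 probes log2 IP differed between lines on day +2 by 0.01 ± 0.08, and log2 input by 0.89 ± 0.58 (SD over probes). The input net signals on day +2 were 3.14 in control and 12.1 in shRNA8 cells at chr4:88928023-88928067, 40.7 and 73.7 at chr4:88928286-88928330, and 7.43 and 15.4 at chr4:88928917-88928961. The IP signals were 111 and 136, 574 and 675, and 145 and 158. On day -2 log2 IP differed by -0.05 ± 0.07 and log2 input by 0.47 ± 0.38. With the processed IP signal in place of the ratio the value on day +2 was 0.02, and over all 7 probes of the group the ratio differed by -0.11 ± 0.70. The input arrays of the lines differed over the whole slide as well, the share of all probes above the negative controls being 53.2% and 55.9% in control and 60.9% and 65.0% in shRNA8 cells. The part of that difference in the Ink4a value was not tested.

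At 3 of 3 usable Ink4a probes both control arrays lay above both shRNA8 arrays in ratio. The same held at 22.2% of the usable probes of the array, and the reverse at 17.4%. It held at all probes of 1.14% of the 3853 groups with exactly 3 usable probes, and the reverse at 0.467%. This count was chosen after the values were seen and describes where the group stands. The comparison of lines rests on 2 arrays a line taken from 2 days, from a single stable line.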

How the data were processed

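Methylated DNA immunoprecipitation on 2-colour arrays was measured in 4 samples, 1 array per group. Per the file headers, Feature Extraction 11.0.1.1 made the spot values, on probe positions in mm9. The deposited files hold intensity values (background-subtracted, median and processed signals), a log10 ratio and its p-value, which was not used here. Per the submitters' processing notes limma was used, with no role given. Net signal is the deposited background-subtracted intensity. Ratios are log2 of the deposited processed signals, median centred and quantile normalized over 174301 unflagged probes (of 174638). Because no replicates exist, precision is limited to the spread over probes, and no test was run. Regions joined probes up to 1000 bp apart. Named probes were the 3 highest and 3 lowest in IP, the 2 highest and 2 lowest in ratio, and the largest difference each way per comparison. The locus, its groups and the rules were chosen with earlier results of these data known. A list of other pathway and neighbouring genes was set aside, since the files do not pair probes with gene names. Sequences came from a RefSeq table of GRCm38.p6, where 2 of 2 genes matched by symbol; no coordinates were converted. Alternatives changed the signal, flanks, centring (with limma 3.58.1 in R 4.3.3), probe filter and summary. Python 3.11.15, numpy 2.4.6 and pandas 2.3.3 were used.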

Additional observations from a re-analysis of the deposited data

How the results depend on the processing

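The locus as a percentage of its flanks was 213.5% in IP and 91.5% in input. In IP it was 196.6% without background subtraction, 167.6% with 500 kb flanks, 411.7% with the right flank alone, 122.2% after division by the median of each probe length, 65.8% with means and 350.7% without the bright stretch, an alternative chosen after seeing the data. In input it was 56.8% with 500 kb flanks, 110.8% against the rest of chromosome 4, 400.1% with the right flank alone, 72.4% after the length division, 49.7% with means and 149.1% without the bright stretch. The cause of these shifts was not tested. With the flank median as the zero, the mean ratio difference over the locus was 0.29 between lines on day -2, 0.17 on day +2 and 0.32 between days in control cells. Over the 14 usable probes, a filter chosen after seeing the data, it was -0.31 between lines on day -2 and -0.11 between days in control cells. On day +2 it was 0.22 with only well-measured probes and 0.21 as a median. Of 44 alternatives for the 4 mean differences, 9 had another sign than the reported value and 0 reached 0.6. The 6 reversals all came from the processed IP signal alone: -0.0243 at chr4:88941367-88941411 on day -2 and -0.0585 there between days, -0.0225 at chr4:88957064-88957111, 0.00841 at chr4:88957710-88957759 on day +2, -0.0585 at chr4:88941559-88941603, and 0.0209 for the Ink4a group. The Ink4a value of -0.68 on day +2 was -0.80 with median centring and -0.68 with the deposited log ratio. It dropped below the size rule with loess at -0.59, without background subtraction at -0.14 and with all 7 probes at -0.11. No paired analysis was possible because each group had 1 array, so no replicate numbers could pair samples across groups. A model with line and day as additive terms, which leaves 1 residual degree of freedom, was not run. Signal that did not pass background in every array, mostly in input, limits 10 of the 24 probes. Input passed in all 4 arrays at 15 of the 24. No replicate error can be given.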
